A study of Mus musculus with 50 samples.

Results

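DNA methylation was examined at 10 genes of the muscle transcription programme in the soleus, comparing wild-type (WT) mice with mice lacking Dnmt3a in muscle (mD3AKO). The genes were the myogenic regulatory factors Myod1, Myf5, Myf6 and Myog, the Mef2 factors Mef2b, Mef2c and Mef2d, the inhibitors Id1 and Id3, and the E protein gene Tcf12. A CpG belonged to a gene when the deposited table placed it in that gene's promoter, from 3000 bp upstream to 1000 bp downstream of the transcription start, or in its gene body. By this rule 81 of 205304 measured CpGs belonged to 6 of the 10 genes, in 12 of 51038 clusters of CpGs lying at most 100 bp apart.

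The myogenic regulatory factors are basic helix-loop-helix proteins that switch on muscle genes by binding E-box sequences, for which they pair with E proteins such as the product of Tcf12. Id proteins lack a basic region, bind E proteins and so keep these pairs off DNA. Mef2 proteins are MADS-box factors that act with the myogenic factors and, in adult muscle, take part in the slow fibre programme for which the soleus is known. DNMT3A is a de novo DNA methyltransferase, which places methyl groups on unmethylated CpGs.

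All mice were C57BL/6, 12 weeks old and of both sexes, and all, controls included, carried Dnmt3a flox/flox alleles with loxP sites around exon 19. WT mice were Dnmt3a flox/flox, and mD3AKO mice also carried mCK-Cre, a Cre transgene under the muscle creatine kinase promoter. That promoter acts late in muscle differentiation, so satellite cells and non-muscle cells of a mD3AKO muscle are likely to keep Dnmt3a, which was not tested here. In a whole muscle a change in methylation per fibre and a change in the mix of cells cannot be told apart. Muscles were taken at rest, after a sham treadmill, or at 10, 30 or 60 min after 30 min of treadmill running. WT muscles with counts numbered 5, 5, 5 and 6 in that order, and mD3AKO muscles 5, 5, 7 and 6.

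Reduced representation bisulfite sequencing (RRBS) gave 12819404 to 41285655 methylation calls per muscle. A methylation level is the share of calls at a CpG, or summed over a cluster, that were methylated, in percent. Counting intervals and limits cover counting error only, since PCR copies were not told apart. At the targeted gene, 21 CpGs of Dnmt3a were covered and the depth-scaled calls in mD3AKO were 0.897 to 1.24 times those in WT at each, so the coverage held no check of the deletion. Methylation counts held no expression marker with which to check the tissue. The labels numbered muscles at rest and 60 min 1 to 25 and those at 10 and 30 min 26 to 50, and results that rest on 1 of these sets are given within each.

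Mef2d had the most measured CpGs, 23 in 4 clusters. Myod1 and Tcf12 had 17 each, in 1 and 2 clusters. Id3 had 11 in 3 clusters, Id1 had 8 in 1 cluster and Mef2c had 5 in 1 cluster. Myf5, Myf6, Myog and Mef2b had none in the table. RRBS reads start at CCGG, the site of the enzyme MspI, and the table lists only CpGs with at least 8 calls in every muscle. In GRCm38 the promoter of Mef2c holds 26 CG pairs and 0 CCGG sites. The promoters of Myog, Myf5 and Myf6, of which no CpG was in the table, hold 64, 80 and 41 CG pairs and 7, 6 and 2 CCGG sites. For Mef2b, 18 measured CpGs lay within the span of its promoter and gene, but the table gave them to the neighbouring gene Borcs8, and they were not counted as members. In the 6 clusters that hold the 17 of these CpGs within the Mef2b gene itself, the WT level ran from 0.238% to 56.9% and no adjusted p for genotype was under 0.765 (edgeR quasi-likelihood test).

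Because the comparisons below turn on which CpGs were measured, 5 stretches are shown, on the plus strand of GRCm38 and with the measured CpGs in capitals. The first 3 are the clusters with the lowest p-values for genotype, from an intron of Mef2c (chr13:83518183-83518259), across an intron and a coding exon of Mef2d (chr3:88158005-88158078) and from an intron of Tcf12 (chr9:71909286-71909354, a gene on the minus strand). The fourth is the coding part of the Myod1 cluster in exon 1 (chr7:46376686-46376849), and the fifth lies about a kilobase upstream of Id1 (chr2:152735174-152735256).
Mef2c intron: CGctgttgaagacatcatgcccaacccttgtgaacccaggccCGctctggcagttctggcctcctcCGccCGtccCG
Mef2d intron and exon: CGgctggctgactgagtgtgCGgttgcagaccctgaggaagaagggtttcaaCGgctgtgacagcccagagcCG
Tcf12 intron: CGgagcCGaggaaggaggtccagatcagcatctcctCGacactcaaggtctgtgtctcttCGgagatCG
Myod1 exon 1: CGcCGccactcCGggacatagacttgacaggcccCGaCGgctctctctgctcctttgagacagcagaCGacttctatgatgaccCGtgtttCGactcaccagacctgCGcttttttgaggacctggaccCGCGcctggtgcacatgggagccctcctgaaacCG
Id1 upstream: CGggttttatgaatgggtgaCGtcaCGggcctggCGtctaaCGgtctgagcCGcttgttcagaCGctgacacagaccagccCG

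Most of these regions were almost free of methylation in WT muscle. The WT mean was under 1% at 4 of the 12 clusters, from 1% to 5% at 3, from 5% to 20% at 4 and above 80% at the Tcf12 intron alone, and the median was 2.10% against 52.2% over all clusters. The clusters that held promoter CpGs, 8 of the 12, had a median WT level of 1.07%, and the 4 in gene bodies only had one of 12.4%. In 300 bp windows of GRCm38 centred on each cluster, the members were richer in GC than clusters at large, with a median of 60.8% against 51.7%, and the ratio of observed to expected CpGs had a median of 0.561 against 0.40. An E-box, CANNTG, which reads the same on both strands, was found in 9 of the 12 windows, or 75%, against 75.2% of all windows. The MEF2 motif, also its own reverse complement, occurred in 2 of the 12 windows, both of Mef2d, against 2.50% of all windows.

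Methylation at 1 of the 12 clusters, in the Mef2c intron, was lower in mD3AKO muscle past the threshold of an adjusted p of 0.05 over all clusters. Over all clusters, 1.09% were called in the same test and 1.09% were called lower in mD3AKO, and the members' share, 1 of 12 or 8.33%, rests on a single region. The mean was lower in mD3AKO at 9 of the 12 clusters, or 75%, against 62.4% of all clusters, and the median difference was -0.32 percentage points against -0.46. An unadjusted p under 0.05 was found at 4 of the 12, with 9.56% of all clusters doing so. These 4 were the Mef2c intron, the Mef2d intron and exon, the start of Mef2d and the Tcf12 intron. The 4 clusters with gene body CpGs only were all lower in mD3AKO, with a median difference of -4.56 points, while the 8 with promoter CpGs had 5 lower and a median of -0.05 points. Their median WT levels also differed, at 12.4% and 1.07%, and no share over all clusters of either kind is given beside them.

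**Figure D1:**
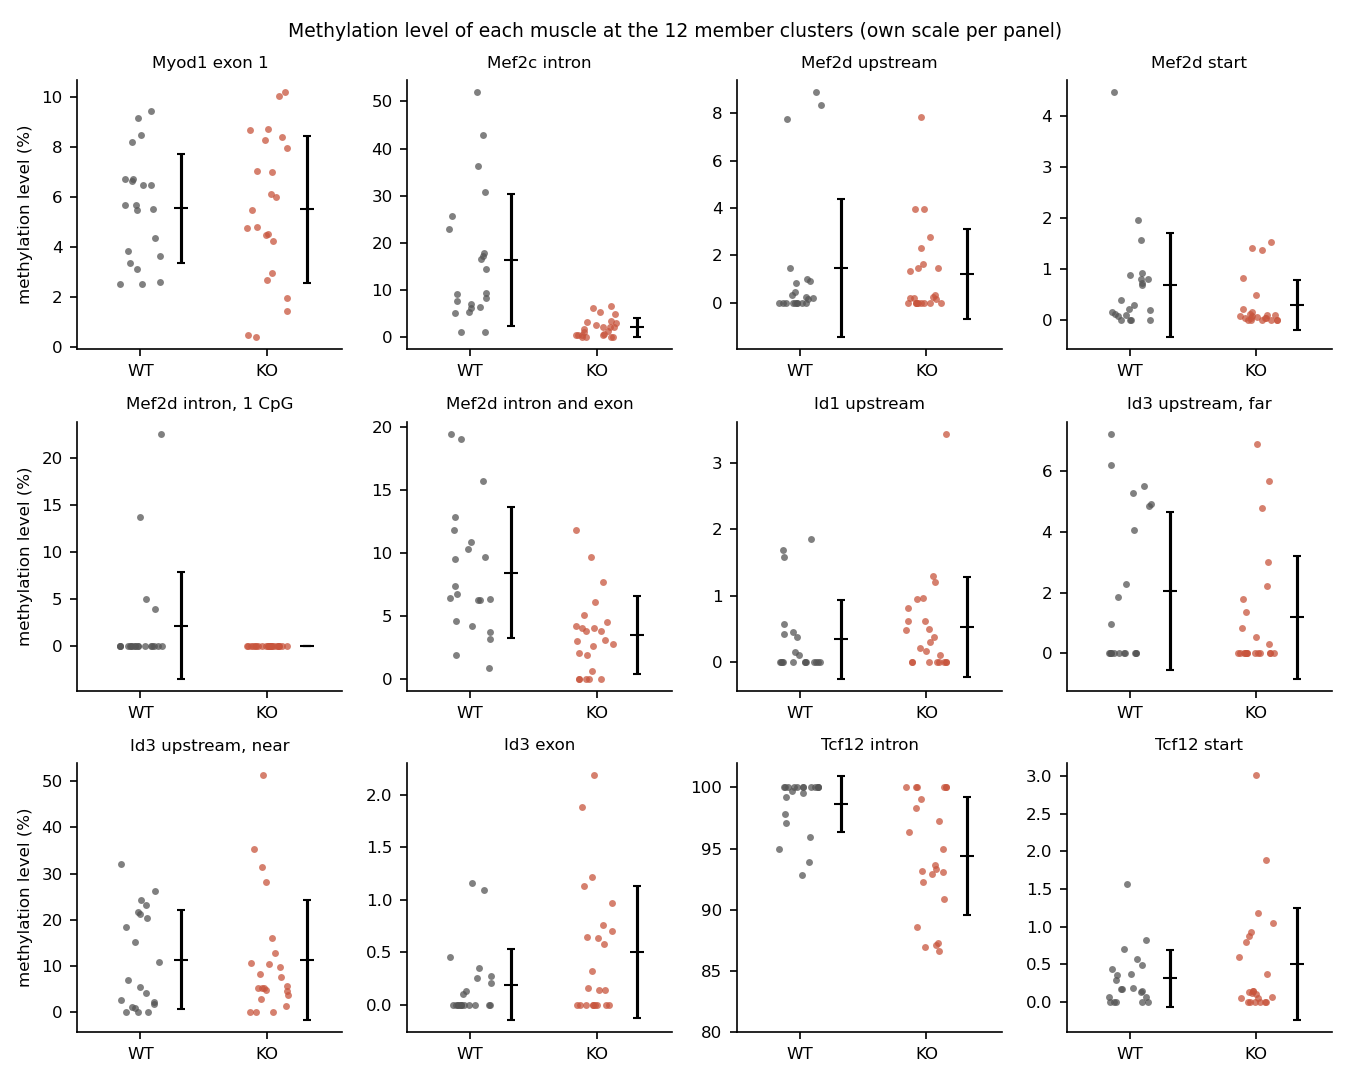
Methylation level of every muscle at the 12 clusters, in percent and on its own scale in each panel, with WT in grey (21 muscles), mD3AKO (KO) in red (23 muscles) and the mean ± SD in black; the Tcf12 intron axis starts at 80%. The WT muscles spread up to 51.9% at the Mef2c intron, where no KO muscle exceeds 6.68%.

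Mef2c encodes a Mef2 factor needed for muscle and heart development. Its 5 measured CpGs lay in an intron 14149 to 14225 bp downstream of the annotated gene start. In WT muscle the level of the cluster ran from 1.12% through a median of 9.42% to 51.9%, and in mD3AKO muscle from 0% through 1.68% to 6.68%, on 165 to 1371 calls per muscle. The genotypes overlapped: 15 of 21 WT muscles lay above the highest mD3AKO muscle, and 10 of 23 mD3AKO muscles lay below the lowest WT muscle. All 23 mD3AKO muscles were below the WT median. WT muscles averaged 16.3% ± 14.1 (SD, n = 21) and mD3AKO muscles 2.10% ± 2.05 (SD, n = 23), a difference of -14.2 points (95% confidence interval -20.3 to -8.17). The odds of methylation were lower by 3.23 ± 0.57 (SE) on the log2 scale, written as a log2 odds ratio of -3.23 (edgeR quasi-likelihood test, adjusted p = 0.000854). By p-value the cluster ranked 69 of 51038.

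In percentage points, the WT muscles were spread far more widely at this cluster than the mD3AKO muscles. The mD3AKO levels lay near 0%, where there is little room for spread. At rest, the 5 WT muscles had levels of 5.21%, 6.12%, 7.03%, 16.5% and 30.8%, and the 5 mD3AKO muscles 0.514%, 0.993%, 2.16%, 3.05% and 3.16%. At 10 min, the WT levels were 9.19%, 17.1%, 17.8%, 36.3% and 42.9%, and the mD3AKO levels 0.522%, 2.11%, 2.54%, 5.31% and 6.18%. At neither time did the genotypes overlap, which 0.774% of all clusters showed in the same direction at rest and 0.768% at 10 min. At 30 min, the 5 WT muscles ran from 7.68% through 9.42% to 25.6% and the 7 mD3AKO muscles from 0% through 0.689% to 4.99%, again without overlap, as at 0.711% of all clusters. At 60 min, the 6 WT muscles ran from 1.12% through 5.86% to 51.9%, the widest range of any group, and the 6 mD3AKO muscles from 0% through 0.92% to 6.68%, and here the groups overlapped. The 4 mD3AKO muscles at 0%, of which 2 were taken at 30 min and 2 at 60 min, had 165 to 812 calls, which allow levels of up to 0.369% to 1.82%.

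**Figure D2:**
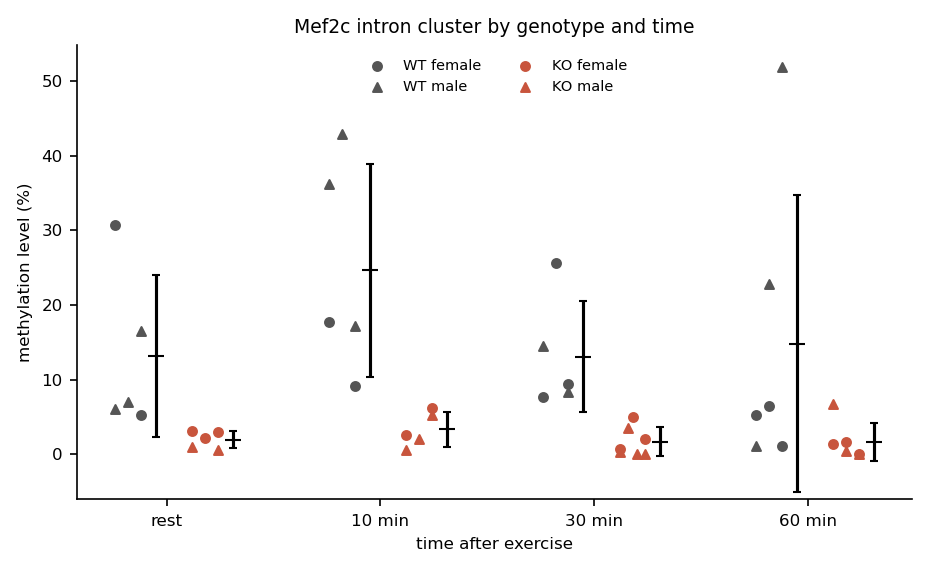
Methylation level of the Mef2c intron cluster in percent by time after exercise, with WT in grey, mD3AKO (KO) in red, females as circles, males as triangles and the mean ± SD in black. WT and KO muscles are apart at rest, 10 min and 30 min and overlap at 60 min, where 2 WT muscles lie near 1.12%.

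The lower level at the Mef2c intron was seen within each set of sample numbers and in each sex. Among muscles numbered 26 to 50, the lowest of 10 WT muscles was at 7.68% and the highest of 12 mD3AKO muscles at 6.18%, a separation shown by 0.047% of all clusters, and the log2 odds ratio was -3.62 ± 0.71 (SE; edgeR quasi-likelihood test, adjusted p = 0.0525). Among muscles numbered 1 to 25, the ranges overlapped and the log2 odds ratio was -2.84 ± 0.84 (SE; adjusted p = 0.366), so neither set passed the threshold alone. WT means were 11.8% ± 9.69 (SD, n = 10) in females and 20.4% ± 16.5 (SD, n = 11) in males, against 2.54% ± 1.79 (SD, n = 11) and 1.70% ± 2.27 (SD, n = 12) in mD3AKO.

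Within the Mef2c cluster, 3 of 5 CpGs were lower in mD3AKO past the threshold over all CpGs, of which 0.284% were called. The CpG 14191 bp from the gene start (chromosome 13, position 83518225) had the largest difference, from 25.5% ± 22.1 (SD, n = 21) to 3.28% ± 5.87 (SD, n = 23), and the highest WT muscle was at 74.7%. Its log2 odds ratio was -4.33 ± 0.75 (SE; edgeR quasi-likelihood test, adjusted p = 0.000861). The CpG at 14149 bp (position 83518183) fell from 15.5% ± 21.6 to 0.247% ± 0.653 (adjusted p = 0.00304), and 19 of 23 mD3AKO muscles had no methylated call there. The CpG at 14220 bp (position 83518254) fell from 15.7% ± 17.7 to 0.398% ± 0.832 (adjusted p = 0.000919). The CpG at 14216 bp, only a few bases from the last, had 19.4% ± 15.6 in WT and kept 5.22% ± 6.32 in mD3AKO (adjusted p = 0.0715). The fifth CpG, at 14225 bp, was low in both genotypes, at 2.42% ± 5.40 and 1.85% ± 4.31, and had the smallest difference, -0.573 points.

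**Figure D3:**
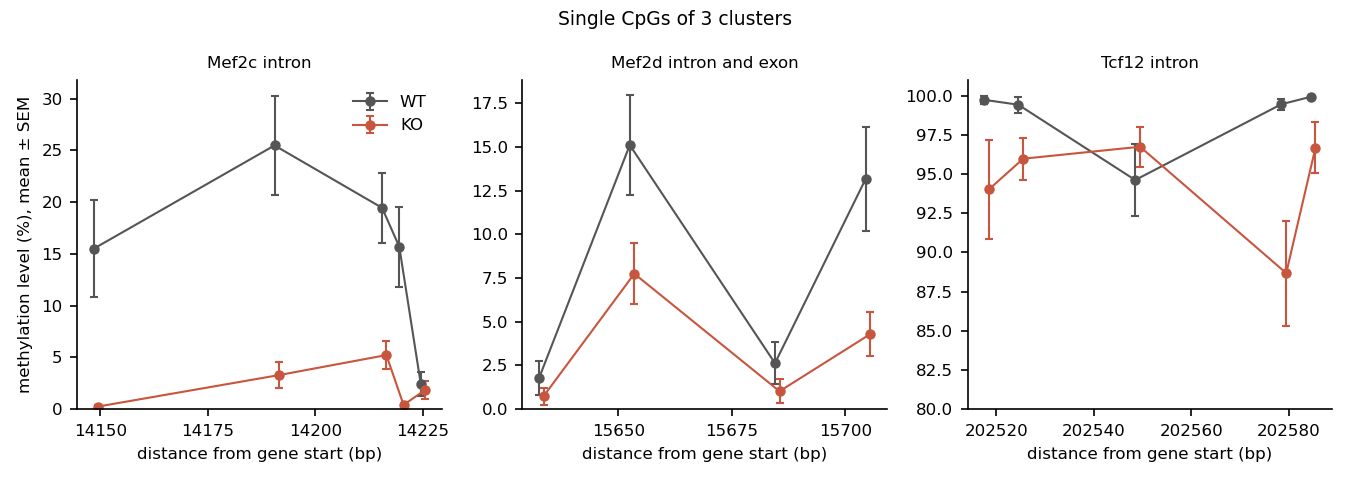
Mean methylation level ± SEM of single CpGs in percent against distance from the gene start in bp, for the Mef2c intron, the Mef2d intron and exon and the Tcf12 intron, in WT (grey, 21 muscles) and mD3AKO (KO, red, 23 muscles); the Tcf12 axis starts at 80%. At Mef2c, 4 of the 5 CpGs have WT means of 15.5% to 25.5% and the fifth is at 2.42%.

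Mef2d encodes the Mef2 factor whose muscle splice form is made as fibres mature. Its 4 clusters lay upstream of the start, at the start, in an intron, and across an intron and a coding exon 15633 to 15705 bp downstream. At the last of these (chromosome 3, 88158005 to 88158077), WT muscles ran from 0.87% through a median of 6.76% to 19.5% and mD3AKO muscles from 0% through 3.11% to 11.8%, on 58 to 750 calls. The ranges overlapped, although 5 of 21 WT muscles lay above every mD3AKO muscle and 6 of 23 mD3AKO muscles below every WT muscle. WT muscles averaged 8.43% ± 5.18 (SD, n = 21) and mD3AKO muscles 3.50% ± 3.10 (SD, n = 23), a difference of -4.93 points (95% confidence interval -7.48 to -2.38). The log2 odds ratio was -1.63 ± 0.50 (SE) and did not pass the threshold (edgeR quasi-likelihood test, adjusted p = 0.118). It did in the edgeR likelihood ratio test (adjusted p = 0.013), which called 2.77% of all clusters, and in limma (adjusted p = 0.0311), which called 1.75%. Of 44 quasi-likelihood refits without single muscles, 1 passed, that without mD3AKO muscle 2, a resting muscle at 9.64% (adjusted p = 0.0246). Those refits were adjusted over a subset of clusters, on which the adjusted p with no muscle left out was 0.103. Within muscles 1 to 25 and 26 to 50 the log2 odds ratio was -1.74 and -1.51 (adjusted p = 0.726 and 0.595). The mean was lower in mD3AKO at each of the 4 CpGs, by 1.04 to 8.88 points, with no CpG past the threshold.

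The other clusters of Mef2d had little methylation to compare. The cluster at the start (88142557 to 88143161) averaged 0.686% in WT and 0.293% in mD3AKO (adjusted p = 0.456), and the one upstream (88140668 to 88140736) 1.46% and 1.21% (adjusted p = 1). A single CpG in an intron (88150291) had methylated calls in 4 of 21 WT muscles, of which the highest was at 22.5%, and in 0 of 23 mD3AKO muscles, whose 1529 calls together allow up to 0.196%. Its mean was 2.15% ± 5.64 (SD, n = 21) in WT. No odds ratio over all times could be fitted, since neither genotype had a methylated call there at 10 min. At rest, 2 of 5 WT muscles had methylated calls, at 13.6% and 22.5%, and 0 of 5 mD3AKO muscles did (unadjusted p = 0.0181, adjusted p = 1, edgeR quasi-likelihood test).

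Summed over the 18 CpGs in its gene body, Mef2d passed the threshold. WT muscles ran from 0.29% through 2.32% to 4.09% and mD3AKO muscles from 0% through 0.801% to 2.25%. WT muscles averaged 2.23% ± 1.09 (SD, n = 21) and mD3AKO muscles 0.951% ± 0.711 (SD, n = 23), with overlapping ranges and a log2 odds ratio of -1.48 ± 0.39 (SE; edgeR quasi-likelihood test, adjusted p = 0.0408). The Mef2c gene body consists of the intron cluster alone and was also called (log2 odds ratio -3.17 ± 0.54, SE; adjusted p = 0.000334). These were 2 of the 5 gene bodies with measured CpGs, against 1.42% of all 12391 gene bodies. Requiring at least 20 calls in every muscle left 2 of the 18 CpGs of the Mef2d gene body, with 2 methylated calls in WT and 1 in mD3AKO, too few to fit the genotype effect.

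**Figure D4:**
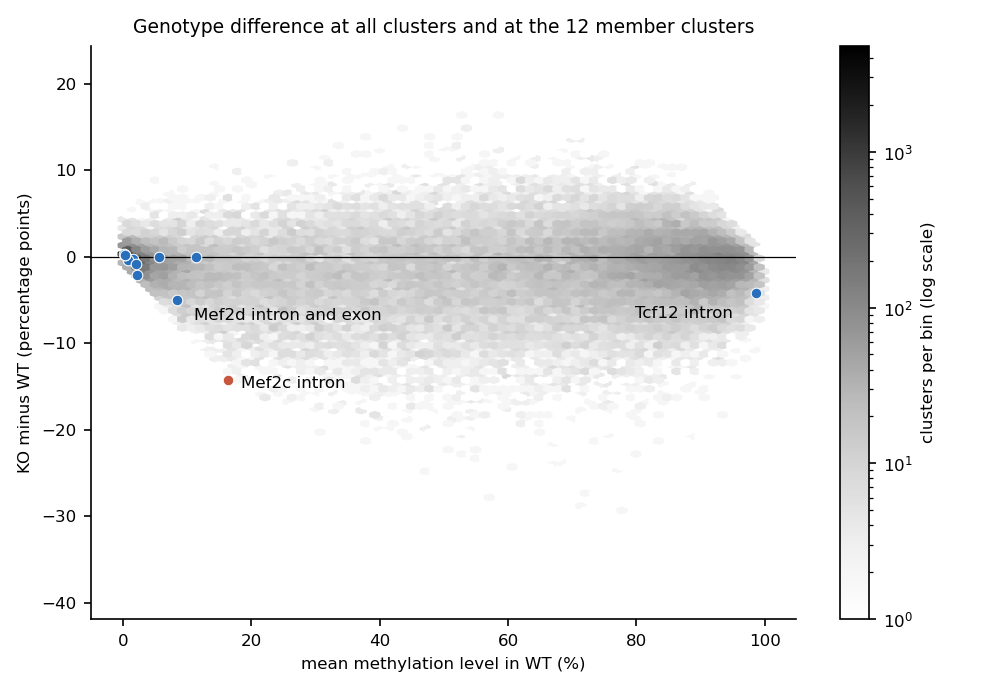
Difference in mean methylation level between mD3AKO (KO) and WT, in percentage points, against the mean WT level in percent, for 51038 clusters (grey bins, darker for more clusters on a log scale) and the 12 member clusters (points; red where the adjusted p was under 0.05, otherwise blue). The Mef2c intron lies at -14.2 points and most members lie near 0 at low WT levels.

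The members were also read against clusters of like WT level. Of the 4479 clusters with a WT mean of 5% to 20%, 3.57% were called and the median difference was -1.50 points. The 4 members in this range were the Mef2c intron, the Mef2d intron and exon, the Myod1 cluster and an upstream cluster of Id3, whose differences were -14.2, -4.93, -0.05 and -0.04 points. Of the 7338 clusters under 1%, 0.0273% were called.

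Tcf12 encodes HEB, an E protein that pairs with the myogenic regulatory factors. Its intron cluster (chromosome 9, 71909286 to 71909353), 202518 to 202585 bp downstream of the annotated start, was the 1 highly methylated member region. WT muscles ran from 92.9% through a median of 100% to 100%, and mD3AKO muscles from 86.7% through 93.7% to 100%, on 54 to 570 calls. Every call was methylated in 12 of 21 WT muscles and in 6 of 23 mD3AKO muscles, and 7 mD3AKO muscles lay below the lowest WT muscle. WT muscles averaged 98.6% ± 2.28 (SD, n = 21) and mD3AKO muscles 94.4% ± 4.83 (SD, n = 23), a difference of -4.19 points (95% confidence interval -6.39 to -1.98). The log2 odds ratio was -2.74 ± 0.76 (SE), short of the threshold (edgeR quasi-likelihood test, adjusted p = 0.067). It passed in the likelihood ratio test (adjusted p = 0.00896) and among clusters of at least 3 CpGs (adjusted p = 0.0394), but not in limma (adjusted p = 0.0556). It also passed in 10 of 44 refits without single muscles, when WT muscle 9, 20 or 31 or mD3AKO muscle 12, 19, 21, 23, 26, 27 or 43 was left out (adjusted p from 0.0222 to 0.0484). On the subset of clusters used for those refits, the quasi-likelihood test with no muscle left out gave an adjusted p of 0.0568. Within muscles 1 to 25 and 26 to 50 the log2 odds ratio was -1.57 and -3.93 (adjusted p = 0.887 and 0.215).

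The difference at the Tcf12 intron was uneven over its 5 CpGs. The CpG at position 71909292 fell short of the threshold at WT and mD3AKO means of 99.5% ± 1.61 (SD, n = 21) and 88.7% ± 16.1 (SD, n = 23; edgeR quasi-likelihood test, adjusted p = 0.166), the largest difference of the 5 at -10.8 points. The CpG at 71909322 had the opposite sign, 94.6% ± 10.5 in WT and 96.7% ± 6.18 in mD3AKO (adjusted p = 1). At the start of Tcf12, 12 CpGs averaged 0.311% in WT and 0.502% in mD3AKO, a difference of 0.19 points (95% confidence interval -0.154 to 0.535; adjusted p = 1).

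Myod1 encodes the myogenic factor that commits cells to the muscle lineage. All 17 of its measured CpGs lay in exon 1, 11 to 375 bp downstream of the start, and count in the table both as promoter and as gene body. WT muscles ran from 2.51% through a median of 5.66% to 9.45% and mD3AKO muscles from 0.38% through 5.47% to 10.2%, on 705 to 2814 calls, and the ranges overlapped almost fully. WT muscles averaged 5.55% ± 2.19 (SD, n = 21) and mD3AKO muscles 5.50% ± 2.95 (SD, n = 23), a difference of -0.05 points (95% confidence interval -1.57 to 1.48). The log2 odds ratio was -0.21 ± 0.31 (SE; edgeR quasi-likelihood test, adjusted p = 0.942). The lower bound of that interval is smaller in size than the differences at the Mef2c intron and at the Mef2d intron and exon. The CpGs themselves differed, from a WT mean of 0.296% near the start to 21% at 134 bp, where mD3AKO muscles averaged 21.4%. Differences at single CpGs ran from -3.00 points (position 46376770) to 2.98 points (position 46376638), and 0 of 17 passed the threshold.

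Id1 and Id3 encode inhibitors of the myogenic factors. The Id1 cluster, 8 CpGs upstream of the start, was nearly unmethylated: WT muscles ran from 0% through 0% to 1.85% and mD3AKO muscles from 0% through 0.293% to 3.45%. Its means were 0.34% ± 0.599 (SD, n = 21) and 0.522% ± 0.762 (SD, n = 23), with a log2 odds ratio of 0.74 ± 0.77 (SE; edgeR quasi-likelihood test, adjusted p = 0.886). The Id3 cluster with the lowest p, 6 CpGs in a coding exon (chromosome 4, 136144045 to 136144139), had a WT mean of 0.19% ± 0.34 (SD, n = 21) and a mD3AKO mean of 0.497% ± 0.629 (SD, n = 23). Both groups lay between 0% and 2.19%, and the log2 odds ratio was 1.05 ± 0.75 (SE; adjusted p = 0.766). The upstream Id3 cluster at 136142304 to 136142363 had levels spread from 0% to 32% in WT and from 0% to 51.3% in mD3AKO, with means of 11.4% ± 10.6 (SD, n = 21) and 11.3% ± 13.1 (SD, n = 23), on 30 to 470 calls (adjusted p = 1). The remaining Id3 cluster, at 136140590 to 136140614, averaged 2.05% and 1.19% (adjusted p = 0.844).

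No promoter of the 5 members with promoter CpGs (Myod1, Mef2d, Id1, Id3 and Tcf12) passed the threshold in the edgeR quasi-likelihood test, the likelihood ratio test or limma, which called 0.789%, 1.93% and 1.36% of 9761 promoters. An unadjusted p under 0.05 in the first test was found at 0 of the 5, against 8.13% of all promoters. Promoter means ran from 0.311% to 5.55% in WT and from 0.502% to 5.50% in mD3AKO. Mef2c, the member with the largest loss in its body, had no promoter CpG measured.

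Exercise was the other factor of the design, with the question whether methylation at these genes shifted within an hour of running. No member cluster changed with time past the threshold in the edgeR quasi-likelihood test, in which 0 clusters were called over the whole table, and 0 members did so in the likelihood ratio test, which called 0.0196% of all clusters, or in limma, which called 0. An unadjusted p under 0.05 for time was found at 0 of 12 members, against 2.86% of all clusters. The lowest belonged to the Mef2c intron (unadjusted p = 0.176, adjusted p = 1), whose resting WT mean was 13.1% ± 10.9 (SD, n = 5). After exercise the WT means were 24.7% ± 14.2 (SD, n = 5), 13.1% ± 7.47 (SD, n = 5) and 14.8% ± 19.9 (SD, n = 6), in order of time, and the ranges of the 4 WT groups overlapped. For the interaction of genotype and time, 0 of 12 had an unadjusted p under 0.05 against 2.74% of all clusters, and 0 were called in any of the 3 tests, which called 0, 0.0137% (likelihood ratio) and 0.00196% (limma) of all clusters. The lowest p was that of the Tcf12 intron (unadjusted p = 0.339, adjusted p = 1).

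**Figure D5:**
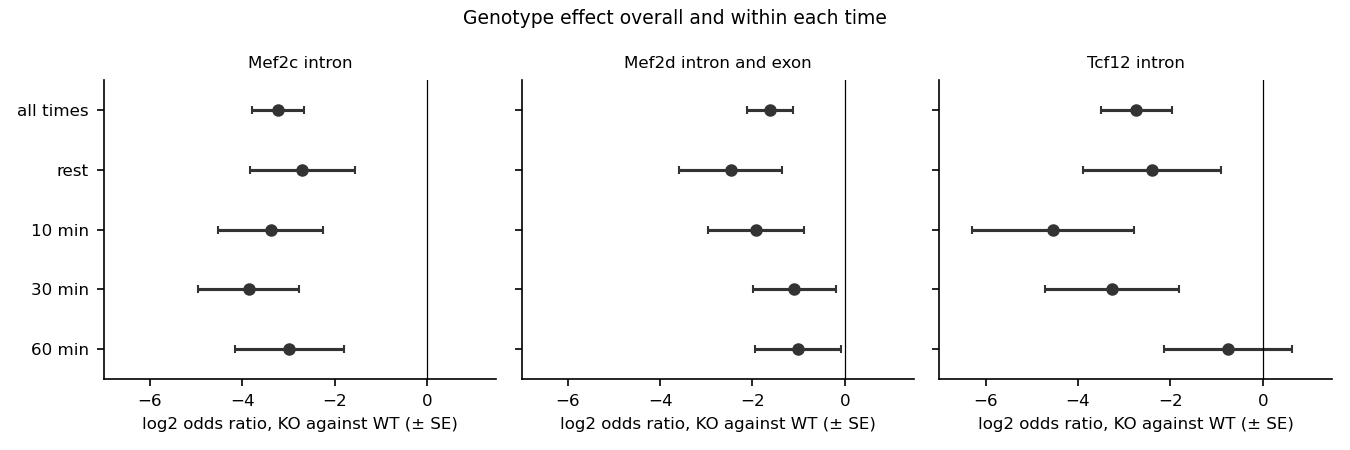
Log2 odds ratio of methylation in mD3AKO (KO) against WT ± SE over all times and within each time, for the Mef2c intron, the Mef2d intron and exon and the Tcf12 intron, from the edgeR quasi-likelihood fit. All 15 estimates lie below 0, and those within a time have wider errors than those over all times.

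Within single times, 0 member clusters were called in the quasi-likelihood test at any of the 4 times, where 0.00588%, 0.0137%, 0.0176% and 0.00784% of all clusters were called at rest, 10, 30 and 60 min. An unadjusted p under 0.05 was found at 3 members at rest and at 2, 2 and 1 of them at 10, 30 and 60 min, against 4.69%, 5.12%, 5.14% and 5.23% of all clusters. The Mef2c intron was among them each time, and 1 of the 3 at rest was the intron CpG of Mef2d with no methylated call in mD3AKO. In order of time the log2 odds ratio at the Mef2c intron was -2.70, -3.38, -3.86 and -2.98, with adjusted p-values of 1, 0.81, 0.416 and 0.872. In the likelihood ratio test, Mef2c was called at 30 min (adjusted p = 0.0424) and no member at another time, while this test called 0.0568%, 0.129%, 0.261% and 0.157% of all clusters in order of time. In limma 0 were called at each time, against 0.0216%, 0.0294%, 0.0568% and 0.0451% of all clusters. The Tcf12 intron was at -2.39, -4.54, -3.26 and -0.76 at these times and the Mef2d intron and exon at -2.47, -1.92, -1.10 and -1.01.

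A list of 44 other genes of the myogenic network was read beside the members. It holds among others the satellite cell factors Pax3 and Pax7, further E proteins and Id genes, the class II histone deacetylases that bind Mef2, and sarcomere genes. This list, like the members, was chosen with earlier results of these data known. The table covered 38 of the 44, in 121 clusters, with a median difference of -0.79 points over the 121. Of the 121, 5, or 4.13%, were called, all lower in mD3AKO, against 1.09% of all clusters. Of the 5 called, 4 belonged to the single gene Pax7, which marks satellite cells. Their means fell from 8.20% to 1.36%, from 29.1% to 10.9%, from 6.37% to 2.03% and from 20.6% to 12.6%. The other belonged to Tcf4, an E protein gene like Tcf12, and fell from 13.4% ± 6.04 (SD, n = 21) to 3.53% ± 3.61 (SD, n = 23; edgeR quasi-likelihood test, adjusted p = 0.000244). No cluster of Mef2a, the remaining Mef2 gene, was among those called. The part of satellite cells or other cells in these levels was not tested.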

How the data were processed

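DNA methylation was measured by RRBS in soleus muscle, and 44 of the 50 samples of the series had counts in the table used here. The other 6 were not used here, 1 of them a mouse whose title and genotype label disagree. The authors trimmed single-end reads with Trim Galore 0.4.0 and cutadapt 1.9.1, aligned them to mm10 with Bismark 0.18.1, added calls of both strands at each CpG, required 8 or more reads at a CpG in all samples and dropped chromosomes X, Y and M. The deposited table gives raw counts, not normalized, of the methylated and of the unmethylated calls of each sample at each CpG, together with the authors' promoter, gene body and cluster assignments. RRBS without molecular identifiers counts PCR copies as calls. Samples are separate mice of the groups in the labels.

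Counts were summed per cluster, promoter and gene body and fitted over all features in edgeR 4.0.16, in a model that gives every sample its own coefficient and each of the 8 groups a mean methylated fraction. The two-sided quasi-likelihood F test with the common dispersion was followed by Benjamini-Hochberg adjustment over all features fitted. That dispersion rested on every 10th feature for single CpGs and refits, and on every 100th cluster for refits without single muscles. The genotype effect is the mean of the mD3AKO groups minus that of the WT groups. Alternatives were the likelihood ratio test, limma 3.58.1 on log2 ratios with a pseudocount of 1, a coverage minimum of 20, a term for sex, each set of sample numbers, clusters of at least 3 CpGs and leaving out each muscle in turn on every 20th cluster and all listed ones. For single CpGs the likelihood ratio test was fitted and adjusted on every 10th CpG and the member CpGs only. Confidence intervals of differences are 95% intervals from the SDs over muscles. Sequences and positions are from GRCm38, the same assembly as mm10, and gene models from GENCODE M21. Every member is named, with full statistics for each one's cluster of lowest p and for features past the threshold. Members and lists were chosen with earlier results of these data known.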

Additional observations from a re-analysis of the deposited data

Results flagged for a closer look

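At the 6 clusters named with full statistics, single muscles stood apart from the rest of their group in 9 of 48 group comparisons by Dixon's criterion, where chance gives about 2.4. At the Mef2c intron, mD3AKO muscle 10 at 60 min had 6.68% against a median of 0.462% in the others of its group. At the Myod1 cluster, WT muscle 32 at 30 min was low, at 2.51% against 6.56%. At the Id1 cluster, WT muscle 20 at rest had 1.85% against 0%, and mD3AKO muscle 27 at 30 min had 3.45% against 0.348%. At the Id3 coding exon, WT muscle 1 at rest had 1.1% against 0%, WT muscle 32 at 30 min had 1.16% against 0.113%, and mD3AKO muscle 33 at 30 min had 1.89% against 0.16%. At the Tcf12 intron, WT muscle 30 at 10 min had 99.5% and WT muscle 31 at 30 min had 97.1%, each against 100%. Most of these lie at levels near 0% or 100%, where many muscles share 1 value and a few calls set a muscle apart. No member cluster had a genotype difference that differed between times past the threshold.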

How the results depend on the processing

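Of the 12 member clusters, 1 was called for genotype, 3 by the edgeR likelihood ratio test and 2 by limma. The count was 2 among clusters of at least 3 CpGs, 0 in muscles 1 to 25 alone and 0 in muscles 26 to 50 alone. It was 1 to 2 when a muscle was left out, while a term for sex left it at 1. A coverage minimum of 20 also left it at 1, but not all 12 clusters were retested. That minimum kept no CpG of the Mef2d intron and exon or of the Tcf12 intron. It also removed the single intron CpG of Mef2d and the upstream Id3 cluster at 136142304 to 136142363. Over all clusters the counts were 557, 1414 by the likelihood ratio test and 895 by limma. For the other refits no count over all clusters is given, so their member counts cannot be read against a share of all clusters. The sets of sample numbers hold fewer muscles each. Of gene bodies, 2 were called, 1 with a coverage minimum of 20, which left too few CpGs of Mef2d to fit, and 2 whichever muscle was left out in limma. Of CpGs, 3 were called over all CpGs and 5 by the likelihood ratio test. For CpGs the latter was fitted and adjusted on every 10th CpG and the member CpGs only, so these counts are not comparable. At 30 min the likelihood ratio test also called 1 member cluster, where the quasi-likelihood test called 0. Promoters, time and the interaction stayed at 0 under every alternative run, leaving out each muscle included. The log2 odds ratio kept its sign at Mef2c, from -3.41 to -3.06 without single muscles (adjusted p from 0.000206 to 0.00138), at Mef2d, from -1.97 to -1.43, at Tcf12, from -3.14 to -2.58, at Id1, from 0.50 to 1.49, at Id3, from 0.83 to 1.74, and at Myod1, from -0.31 to -0.08. On the same subset of clusters with no muscle left out, the adjusted p was 0.0568 at Tcf12 and 0.103 at Mef2d. The sign reversed at Myod1 with a coverage minimum of 20 (log2 odds ratio 0.022), which kept 4 of its 17 CpGs, and in muscles 26 to 50 (0.079). At the Id3 coding exon it reversed in muscles 26 to 50 (-0.10). The mean level there was still higher in mD3AKO, at 0.314% against 0.218% in WT. The cause of these reversals was not tested. The refits without single muscles took their dispersion from every 100th cluster, a step chosen after seeing the data. No paired analysis was possible because each sample number occurs once and the groups share none. Depth limits most the regions with few calls, since the shallowest muscle had 15 calls at the single intron CpG of Mef2d, 30 at the upstream Id3 cluster of highest level and 54 at the Tcf12 intron.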
